A study of Mus musculus with 6 samples.

Results

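The 10 genes described here, Plin1, Plin2, Plin3, Plin4, Plin5, Cideb, Cidec, Fitm1, Fitm2 and Bscl2, encode proteins that coat lipid droplets, enlarge them or help them to form. They were taken by name, not by a measured value, from the 21851 protein-coding genes of the GENCODE annotation of mm10. Earlier results of these data were known when they were chosen. Open chromatin was measured by ATAC-seq, in which a transposase cuts accessible DNA, in mouse adipocytes grown in culture. A promoter peak was a peak whose strongest summit (the highest −log10 q, the peak caller's adjusted significance) lay within 1 kb of a start site of the gene, and a region of the gene was a merged peak with a summit from 50 kb before to 50 kb after the gene. In total, 200 of the 194610 merged regions of the series met that rule.

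Each of 3 conditions had 2 libraries. All cells came from the stromal vascular fraction, the non-adipocyte cells of fat tissue, of wild type C57 mice, for which the labels name male C57BL/6J animals of 3 to 4 weeks, and were collected after 7 days of differentiation. Beige cultures came from inguinal fat and were induced with 5 μM dexamethasone, 0.5 mM isobutyl methylxanthine, insulin, 1 nM T3 (triiodothyronine) and 1 μM rosiglitazone, an agonist of the nuclear receptor PPARγ. White cultures came from the same depot with 1 μM dexamethasone, 0.5 mM isobutyl methylxanthine and insulin, without T3 and rosiglitazone. Brown cultures came from brown adipose tissue and received the same 5 agents at the doses of the beige medium. After induction, beige and brown cultures were kept in insulin, T3 and rosiglitazone and white cultures in insulin alone. The beige and white media differed in T3, rosiglitazone and the dexamethasone dose at once. The sources disagree on insulin, which had the same dose in every medium by the labels and a lower dose in the beige than in the white medium by the methods of the study. The parts of these agents cannot be told apart, and brown and white cultures differed in depot as well. The study calls its ATAC-seq libraries of a group biological replicates, without saying whether they came from separate cultures or animals. It does not describe the brown libraries, which the labels call repeats.

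A lipid droplet is a core of triglyceride and cholesterol ester inside a single layer of phospholipid. Seipin, encoded by Bscl2, and the FITM proteins act in the endoplasmic reticulum where droplets bud, perilipins cover the surface and control the access of lipases, and the CIDE proteins move lipid from smaller to larger droplets. Several of these genes are known targets of PPARγ, which binds with its partner RXR to a direct repeat with a spacer of 1 base, called DR1.

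The 6 peak lists held 109143 to 127490 peaks. Fold enrichment, the height of a peak relative to its surroundings in that library, is not comparable between lists, so each peak was given its percentile within its own list, where 100 is the strongest peak. With 2 libraries against 2 or 4, no exact permutation test can reach a two-sided p of 0.05, so the values are described without a test. All libraries shared promoter peaks at 9 of 10 adipocyte marker genes, the exception being Lep, the gene of leptin, with a peak in brown 1 alone. Of 8 brown fat markers, 6 had promoter peaks throughout, the gene of the uncoupling protein Ucp1 carried them in brown 1 and brown 2 and in no other library, and Zic1 carried them in both brown libraries and beige 2. The ranks of these markers did not point one way. The promoter of Prdm16, a regulator of brown fat identity, ranked highest in white, with percentiles of 48.0 and 31.1 against 2.82 to 15.2 in the other libraries. That of Ppargc1a ranked lowest in white, with 34.4 and 24.9 against 43.2 to 67.9. Lhx8 (48.5 and 55.8 against 4.43 to 24.9) and Epas1 (92.2 and 93.3 against 74.2 to 88.0) ranked highest in brown. Of 8 macrophage markers, promoter peaks were listed throughout at 2, whereas Csf1r, Ptprc, Itgam, Mrc1 and C1qa had none in any library. All 6 libraries had promoter peaks at 3 of 6 endothelial and 4 of 7 progenitor markers. In such mixed cultures, a change in the share of a cell type and a change of accessibility within cells cannot be told apart.

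Sequences are shown for the stretches on which the contrasts below turn: the DNA just before 3 start sites whose peaks differed between libraries, a distal region upstream of Fitm2 with the widest separation of the white libraries, and both DR1 matches that lay within 3 kb before a member's start site. All are read from the RefSeq mm10 genome on the minus strand, the coding strand of each gene, from 5′ to 3′. Capitals mark a match to a motif searched on both strands: AGGTCA repeated in the same direction with 1 base between, with at most 2 mismatches (DR1), TTGCNNAA (C/EBP), CCGGAAG or CAGGAAG (ETS) and CCCNNGGGA (EBF). The capitals in the Plin4 and Plin2 sequences are DR1 matches with 2 mismatches, those before the Fitm2 start are an ETS match and those in the distal Fitm2 sequence are an EBF match. The Plin5 and Cidec sequences, as printed, held no match. Outside the printed stretch, but within 100 bp of the strongest summit, the inner Cidec region and the distal Fitm2 region each held a C/EBP match.
Plin4 upstream, chr17:56111169-56111289: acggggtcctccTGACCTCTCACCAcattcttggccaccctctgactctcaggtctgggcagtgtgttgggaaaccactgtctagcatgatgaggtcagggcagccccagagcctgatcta
Plin2 upstream, chr4:86671979-86672099: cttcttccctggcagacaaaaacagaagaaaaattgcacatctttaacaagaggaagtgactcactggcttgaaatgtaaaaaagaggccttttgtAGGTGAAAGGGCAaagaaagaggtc
Plin5 start, chr17:56117597-56117716: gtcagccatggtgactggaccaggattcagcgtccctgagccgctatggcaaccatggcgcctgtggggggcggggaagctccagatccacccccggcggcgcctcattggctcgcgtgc
Cidec inner start, chr6:113434765-113434944: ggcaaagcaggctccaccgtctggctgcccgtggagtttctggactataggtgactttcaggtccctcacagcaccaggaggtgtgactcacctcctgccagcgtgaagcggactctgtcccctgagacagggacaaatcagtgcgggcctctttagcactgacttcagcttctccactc
Fitm2 start, chr2:163472630-163472749: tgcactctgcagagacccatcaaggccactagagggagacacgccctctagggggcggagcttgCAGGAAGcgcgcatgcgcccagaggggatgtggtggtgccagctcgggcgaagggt
Fitm2 upstream, chr2:163480508-163480628: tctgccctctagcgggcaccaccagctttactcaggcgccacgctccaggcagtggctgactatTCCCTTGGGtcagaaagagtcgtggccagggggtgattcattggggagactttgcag

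A promoter peak was present in all 6 libraries at 8 of the 10 genes, beside 62.0% of all protein-coding genes. The exceptions were Plin5, whose promoter had no peak in white 2, and Fitm1, which had none in any library. Counted by condition, both libraries had a promoter peak at 9 genes in beige (64.9% of all protein-coding genes), 8 in white (64.1%) and 9 in brown (64.2%). The lower count in white came from the missing peak in white 2 at Plin5, where white 1 had a peak.

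**Figure D1:**
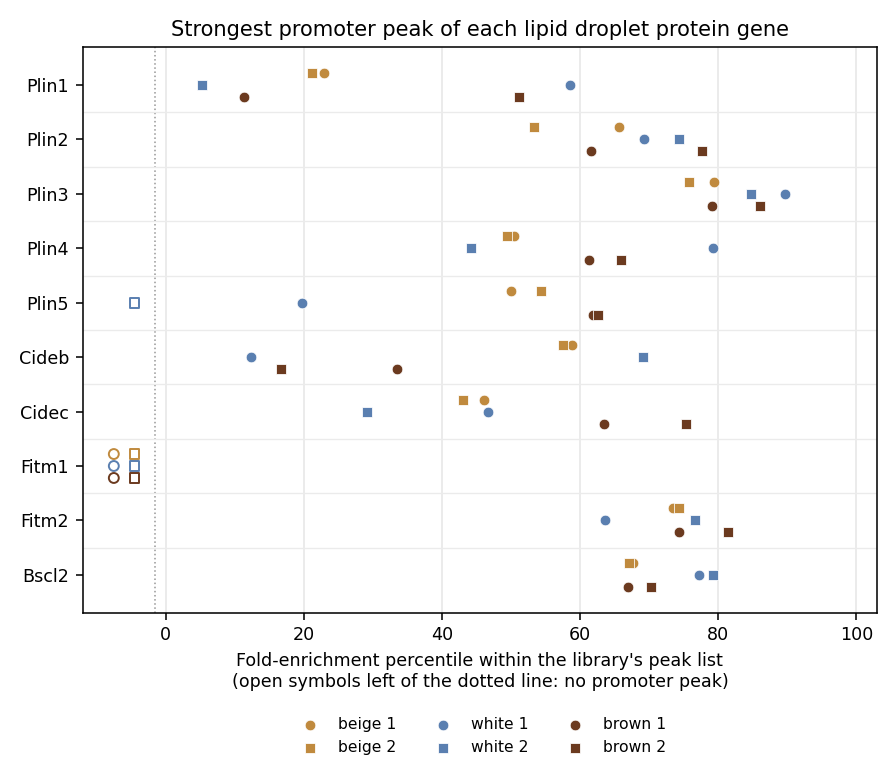
Percentile of fold enrichment of the strongest promoter peak (x axis, 100 is the strongest peak of a library's list) for each gene (y axis) in 6 libraries (circles replicate 1, squares replicate 2). The brown libraries sit above the other 4 at Cidec and the white libraries above the other 4 at Bscl2, and open symbols mark the missing peak of Plin5 in white 2 and of Fitm1 in all libraries.

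Over all 10 genes, 96 of the 200 member regions (48%) had a peak in all 6 libraries, beside 32.4% of the 155860 regions within 50 kb of any protein-coding gene. Of the 200 regions, 16 lay at promoters of member genes, 60 at promoters of other genes and 124 were distal, over 1 kb from every protein-coding start site. A peak in all libraries was present at 11, 42 and 43 of them. The shares were 68.8% of the member promoter regions and 70.0% of the other promoter regions, beside 63.2% of all promoter regions, and 34.7% of the distal member regions, beside 27.2% of all distal regions.

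Regions that were open in some conditions and not in others were few, near these genes as over all regions. A peak in both beige and both brown libraries, and in no white one, was found in 1 of the 200 regions, beside 1.29% of all regions. Both beige and both white libraries and neither brown library had one in 2 regions, beside 1.18%. Beige alone had 4 regions (all regions 2.05%), brown alone 2 (0.811%), white alone 1 (1.18%) and white and brown without beige 0 (0.226%). Thus 10 of 200 regions followed the conditions by presence, and the other 94 had peaks in a mixed set of libraries, of which 42 had a peak in a single library. The share of all regions with a mixed set is not given, so the 94 and 42 are not read as a trait of these genes.

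By rank, the 96 regions with a peak in all libraries showed more regions low in white than high in white. Both white libraries ranked below all 4 others in 22 of them (22.9%), beside 12.9% of the 50453 such regions near any gene, and above all 4 others in 8, beside 11.5%. Both brown libraries ranked highest in 21 (21.9%), beside 10.8%, and lowest in 6, beside 10.9%. Both beige libraries ranked lowest in 10, beside 8.89%, and highest in 10, beside 13.7%. Of the 22 regions lowest in white, 4 were also highest in brown. The excess low in white was not seen at the strongest promoter peaks of the members themselves. Among the 8 members with a promoter peak in all libraries, white was lowest at 0 and highest at 1, beside 19.1% and 8.94% of all such genes. Brown was highest at 1 of the 8, beside 16.1%.

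Most of these margins were narrow. The median gap between the white pair and the nearest other library was 2.38 percentile points in the 22 regions, whereas the white replicates differed from each other by a median of 9.50 points over the 96 regions, the beige replicates by 4.26 and the brown replicates by 4.44. The gap was above 5 points in 6 of the 22 regions. By −log10 q, 20 of the 22 were again lowest in white, while 6 of the 21 highest in brown were again highest. Of the 22, 12 lay at promoters of other genes, 2 at promoters of members and 8 were distal. Over all genes, 17.8% of promoter regions and 11.0% of distal regions with a peak in all libraries ranked lowest in white, and 15.2% and 9.03% ranked highest in brown. Promoter regions made up a larger part of the 96 (11 at members and 42 at other genes) than of the 50453 (14246). The shares given beside the member shares are not adjusted for this.

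**Figure D2:**
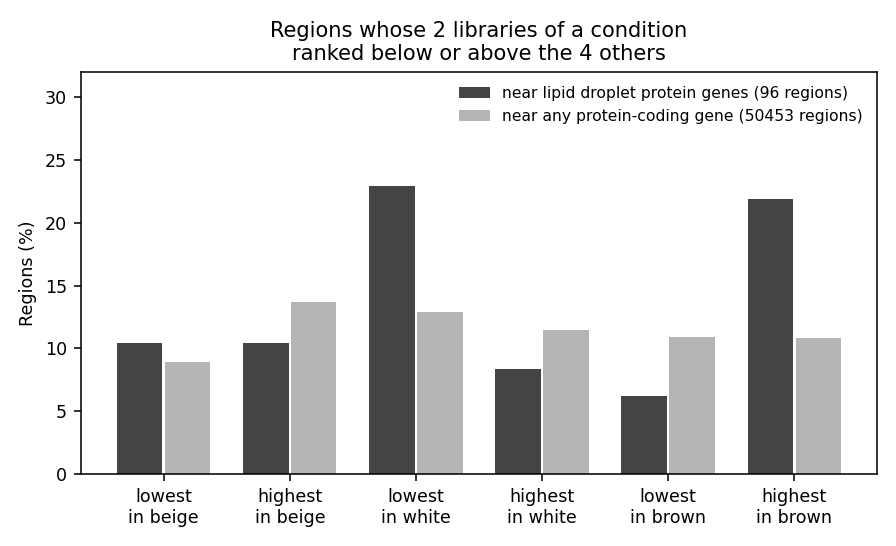
Share of regions with a peak in all 6 libraries (y axis, percent) in which both libraries of a condition ranked below or above the other 4, for the 96 regions near lipid droplet protein genes (dark) and all 50453 regions near protein-coding genes (light). The dark bars stand above the light bars for lowest in white (22.9% against 12.9%) and highest in brown (21.9% against 10.8%). Promoter regions are a larger part of the dark set than of the light set.

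**Figure D3:**
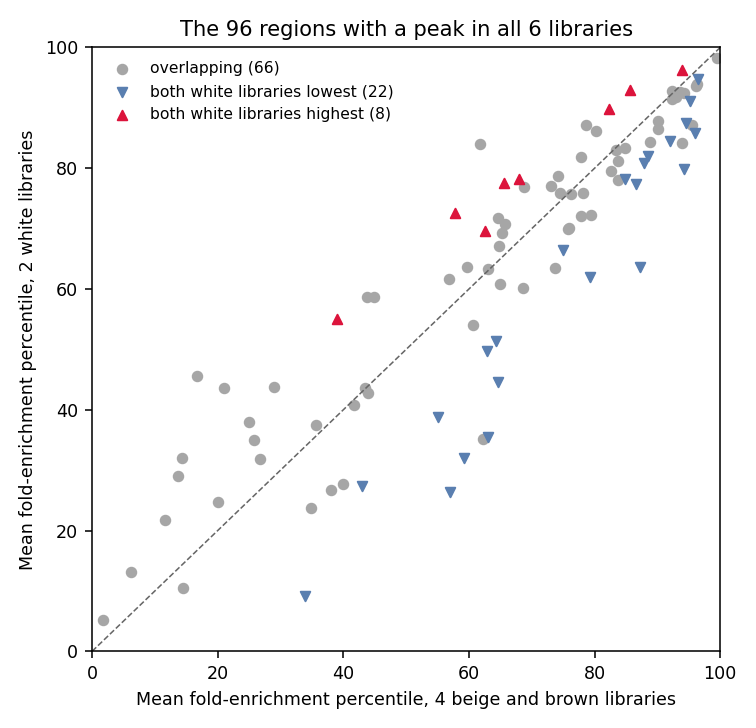
Mean percentile of fold enrichment of the 2 white libraries (y axis) against that of the 4 beige and brown libraries (x axis) for the 96 regions, with equal values on the dashed line. Triangles mark the 22 regions in which both white libraries ranked lowest and the 8 in which both ranked highest, and the other 66 overlapped.

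Plin1 encodes perilipin 1, the coat protein of adipocyte droplets that holds back lipolysis until it is phosphorylated (chr7:79720218-79732903, minus strand). Its promoter peak had a percentile of 22.9 and 21.2 in the beige libraries, 58.5 and 5.23 in the white libraries and 11.4 and 51.2 in the brown libraries. The white replicates lay at opposite ends of that range, and all conditions overlapped. By fold enrichment, the promoter of this adipocyte gene thus ranked below the middle of the list in 4 of 6 libraries. Ranked by −log10 q, it stood higher, with percentiles of 62.7 and 64.4 in beige, 76.7 and 28.3 in white and 40.7 and 71.4 in brown.

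Outside the promoter, 2 regions of Plin1 with a peak in all libraries were among the 3 in which the white pair lay farthest above the other 4. The region at chr7:79734514-79735174, intergenic with its summit at -1882 bp from the start site (minus is before the start site), had percentiles of 68.3 and 63.6 in beige, 75.7 and 79.3 in white and 63.9 and 66.4 in brown. The region at chr7:79729267-79729535, in a UTR annotated inside the gene at 3480 bp, had percentiles of 35.5 and 44.2, 58.4 and 51.8, and 32.4 and 44.0 in the same order. When peaks were ranked by −log10 q in place of fold enrichment, white overlapped the other conditions in both regions.

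Plin2 encodes perilipin 2, which coats droplets in most cell types (chr4:86648386-86670060, minus strand). Its promoter peak had percentiles of 65.6 and 53.3 in beige, 69.2 and 74.3 in white and 61.6 and 77.7 in brown. The beige pair did not separate from brown 1, and no condition stood apart.

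The surroundings of Plin2 held 30 regions, the most of any locus after that of Plin4 and Plin5 (34), and 12 of the 30 had a peak in all libraries. The region at -1979 bp that holds the DR1 match shown above had percentiles of 14.9 and 33.6 in beige, 14.5 and 3.72 in white and 34.2 and 52.8 in brown. Both white libraries were lowest there and both brown libraries highest, with a margin of 0.336 percentile points between white and beige 1 and of 0.531 between brown and beige 2. Ranked by −log10 q, white was again lowest, but brown (63.2 and 71.4) overlapped beige (60.9 and 74.4). This region was chosen for its motif after its values were seen.

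Farther out, an intergenic region at -26980 bp from the Plin2 start site (chr4:86696851-86697190) had percentiles of 59.4 and 65.8 in beige, 50.2 and 49.4 in white and 61.9 and 64.5 in brown. White was lowest by 9.22 percentile points, and also lowest when ranked by −log10 q. The region at -13817 bp (chr4:86683719-86684242), chosen after its values were seen, had percentiles of 36.5 and 53.1 in beige, 89.2 and 78.9 in white and 80.8 and 76.9 in brown. There the beige pair lay 23.8 points below the other 4, and beige was also lowest by −log10 q.

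Both regions with peaks in beige and white and none in brown lay at the far edges of the Plin2 window. The region at 47764 bp (chr4:86622190-86622522) had percentiles of 65.9, 61.5, 49.7 and 61.1 in beige 1, beige 2, white 1 and white 2, and the region at -49290 bp (chr4:86719186-86719670) had 34.1, 33.0, 50.5 and 50.9. Inside the gene, an intronic region at 18179 bp was open in beige alone (percentiles 5.83 and 1.20) and a region in a coding exon at 7886 bp in brown alone (3.47 and 15.6). The intergenic pair ranked near the middle of the lists and the pair inside the gene near the bottom.

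Plin3 encodes perilipin 3, a cytosolic protein that moves onto new droplets (chr17:56277476-56292873, minus strand). Its promoter held separate regions at the coding start site and at -780 bp, each with a peak in all libraries. At the start site (summit -63 bp, chr17:56289830-56290716) the percentiles were 79.4 and 75.8 in beige, 68.9 and 55.1 in white and 79.1 and 82.7 in brown. At -780 bp they were 78.9 and 72.7 in beige, 89.6 and 84.7 in white and 76.6 and 86.0 in brown. White ranked lowest by 6.87 points at the start site, also by −log10 q, whereas at -780 bp white was above beige and overlapped brown.

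A region in an intron of the neighbouring gene Kdm4b, at -48601 bp from Plin3, had peaks in beige alone with percentiles of 53.3 and 27.0. It was the highest ranked of the 4 regions open in beige alone. The others were the Plin2 intron above, a region in a coding exon of Plin4 (7379 bp, 0.08 and 0.42) and an intergenic region at 23378 bp from Cideb (19.8 and 15.0).

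Plin4 and Plin5 lie next to each other on the minus strand (chr17:56100591-56109803 and chr17:56111601-56117596) and share most of their 34 regions. Perilipin 4 coats small new droplets of adipocytes, and perilipin 5 joins droplets to mitochondria in tissues that burn fat. The Plin4 promoter peak had percentiles of 50.4 and 49.4 in beige, 79.2 and 44.2 in white and 61.3 and 65.9 in brown. The white replicates enclosed all other values.

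At the Plin5 promoter (chr17:56117189-56117799) the percentiles were 49.98 and 54.4 in beige, 19.7 in white 1 and 61.8 and 62.6 in brown, and white 2 had no peak. Summits lay between -23 and -60 bp from the start site, within the printed sequence. The −log10 q at the summit was 9.65 in white 1 and 29.3 to 44.7 in the beige and brown libraries. Within the lists, these values had percentiles of 51.3 in white 1 and 75.0 to 82.3 in the beige and brown libraries. The nearest peak of white 2 was at -2429 bp, in the neighbouring gene Lrg1, with a percentile of 1.85.

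The interval between the genes held the only member region with peaks in both beige and both brown libraries and in neither white library. It lies at chr17:56111062-56111365, intergenic, with its summit at -1426 bp from the Plin4 start site and 6367 bp from that of Plin5. The percentiles were 6.07 and 2.43 in beige and 22.1 and 24.6 in brown, and the −log10 q was 15.2 and 12.9 in beige and 27.0 and 25.2 in brown. These peaks were low by fold enrichment but far above the threshold for a peak, a −log10 q of 1.30. The DR1 match printed above begins at -1474 bp from the Plin4 start site.

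Between that region and the Plin4 start site, a weaker summit at -858 to -940 bp was listed in 5 libraries. Its fold enrichment was 3.75 and 3.41 in beige, 2.47 in white 2 and 3.55 and 4.63 in brown, and no summit was listed in white 1. As these folds come from separate lists, they are given side by side only.

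Of the 11 regions of the Plin4 and Plin5 locus with a peak in all libraries, 5 ranked lowest in white (all genes 12.9%) and 0 ranked highest in white. All 5 lay upstream of Plin5, at -7379 and -17249 bp in introns of Sema6b, at -36297 and -42340 bp between genes and at -44830 bp at the start site of Tnfaip8l1. The region at -7379 bp (chr17:56124327-56125315) had percentiles of 61.8 and 61.5 in beige, 18.8 and 52.1 in white and 59.6 and 69.4 in brown, and the gap between white 2 and the nearest other library was 7.47 points. All 5 were also lowest in white when ranked by −log10 q. Neighbouring regions share their libraries and are not independent of each other.

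**Figure D4:**
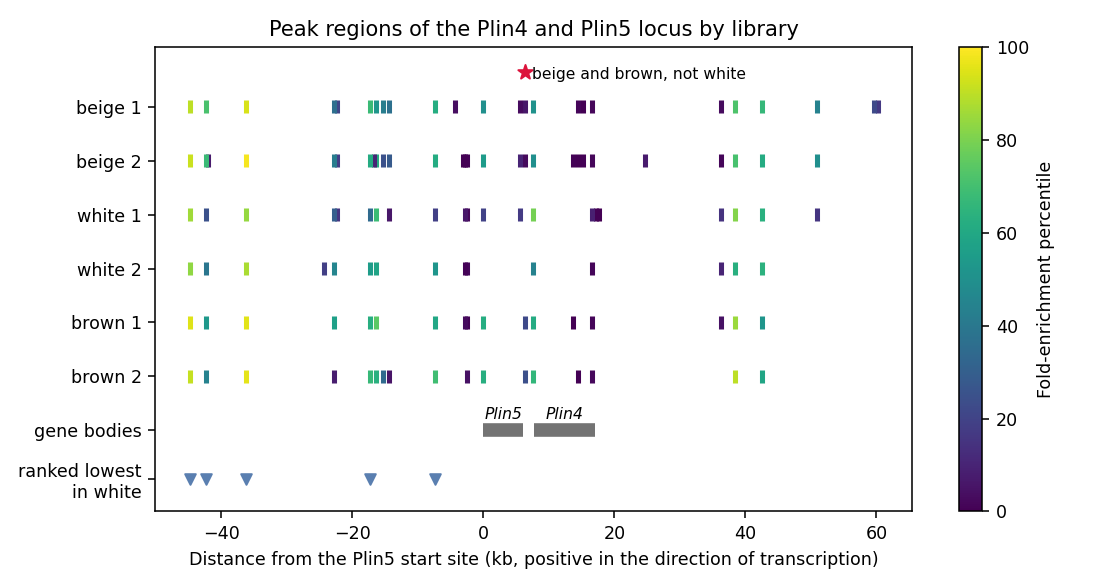
Peak regions of the Plin4 and Plin5 locus by library (rows), against the distance of their summit from the Plin5 start site in kb (x axis), coloured by percentile of fold enrichment. The star marks the region with peaks in beige and brown and in neither white library, and triangles mark the 5 regions in which both white libraries ranked lowest, all of them upstream of Plin5.

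Cideb encodes a CIDE protein best known in the liver, where it takes part in the lipidation of lipoproteins (chr14:55754050-55758458, minus strand). Its promoter peak, at -233 to -247 bp, had percentiles of 58.9 and 57.6 in beige, 12.4 and 69.2 in white and 33.5 and 16.7 in brown. Both beige libraries were above both brown libraries, and white spanned the range. The only member region open in white alone was in an intron of Adcy4 at -18918 bp from Cideb (chr14:55777244-55777478, percentiles 3.13 and 17.2). It held a DR1 match with 1 mismatch.

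Cidec encodes CIDEC, also known as FSP27, which enlarges droplets in adipocytes (chr6:113424634-113435760, minus strand). The annotation gives it start sites up to 996 bp apart, and each end of that stretch had its own region with a peak in all libraries. At the outer start site (summit -188 bp) the percentiles were 35.2 and 19.05 in beige, 46.6 and 29.2 in white and 34.9 and 10.8 in brown, with all conditions overlapping. At the inner start site (chr6:113434609-113435316, in an intron of the longer transcripts) they were 46.1 and 43.1 in beige, 42.4 and 10.3 in white and 63.5 and 75.3 in brown.

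Both brown libraries were thus highest at the inner start site, by 17.4 points, the widest margin of brown over the other conditions in any of the 96 member regions with a peak in all libraries. Ranked by −log10 q, brown was again highest there and white lowest. The strongest summit lay within the printed sequence in all libraries but white 2, in which it was at 785 bp from the outer start site. Brown also had a peak of its own in an intron at 1973 bp, with percentiles of 15.1 and 0.639 and a −log10 q of 13.2 and 3.69. Its summits, 977 and 988 bp after the inner start site, were just inside the limit of 1 kb.

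Fitm1 encodes a FITM protein found mainly in skeletal muscle and heart (chr14:55575617-55576954, plus strand). It had no promoter peak in any library. The nearest summit lay 2420 to 2817 bp after its start site, at the start site of the neighbouring gene Psme1, with percentiles of 74.8 to 91.2. Of the 12 regions within its window, 8 lay at promoters of other genes.

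Fitm2 encodes the widely expressed FITM protein (chr2:163466379-163472629, minus strand). A single interval of 1187 to 1210 bp covered its start site in every library, with percentiles of 73.4 and 74.3 in beige, 63.6 and 76.6 in white and 74.4 and 81.4 in brown. The position of the strongest summit differed between libraries. In beige it was found at -32 and -16 bp. In brown it was found at -8 and -13 bp, and in white at 807 and 875 bp, inside the gene. The summit at -13 bp lies in an annotated exon of 2310001K24Rik, so the signal there cannot be assigned to Fitm2 alone.

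The white libraries were not without signal at the Fitm2 start site. White 1 had a weaker summit at -17 bp with a fold enrichment of 3.53, beside 4.95 at its strongest summit, and white 2 had one at 41 bp with 5.44, beside 5.76. Within beige 1, the summit at -32 bp had a fold of 7.58 and that at 812 bp a fold of 5.86. Within the same interval, the summit near the start site was thus the stronger in beige 1 and the weaker in both white libraries.

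The widest margin of the white pair below the others was upstream of Fitm2. The intergenic region at -7939 bp (chr2:163480236-163480899) had percentiles of 89.9 and 87.2 in beige, 67.3 and 59.8 in white and 85.2 and 86.3 in brown. The 4 beige and brown libraries lay between 85.2 and 89.9, and white 1 was 17.9 points below the lowest of them. White was also lowest when ranked by −log10 q, with percentiles of 63.0 and 54.2 against 79.5 to 84.8.

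Bscl2 encodes seipin (chr19:8837467-8848683, plus strand). The strongest promoter peak lay 169 to 204 bp after the outer start site in all libraries, with percentiles of 67.7 and 67.1 in beige, 77.2 and 79.3 in white and 66.9 and 70.3 in brown. Both white libraries were highest, by 6.89 points, also when ranked by −log10 q. The interval also covers a UTR of Gng3 on the other side, so the peak cannot be assigned to Bscl2 alone. At an inner start site of Bscl2, 3052 bp downstream, the percentiles overlapped between conditions.

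**Figure D5:**
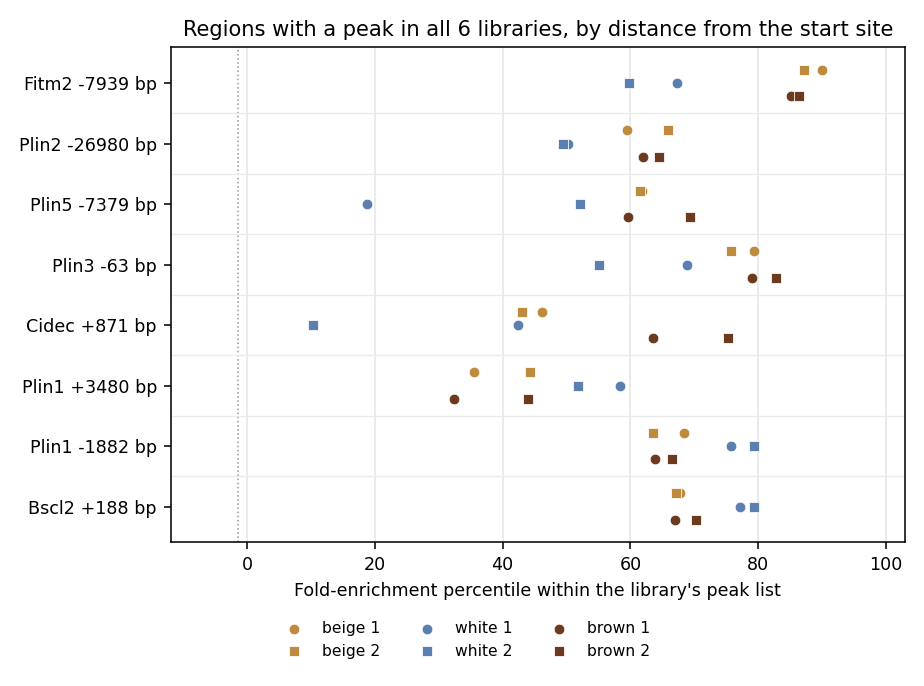
Percentile of fold enrichment (x axis) of 8 regions with a peak in all libraries, named by gene and by the distance of the summit from the start site (y axis). The white libraries (blue) lie below the other 4 in the upper 5 regions and above them in the lower 3, and the brown libraries lie 17.4 points above the rest at the inner Cidec start site (871 bp).

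Matches to the searched motifs within 100 bp on each side of the strongest summit were about as frequent as elsewhere. DR1 was found in 7 of the 200 member regions (3.5%), beside 3.62% of all merged regions. C/EBP was found in 15% beside 12.6%, ETS in 14.5% beside 12.3% and EBF in 8% beside 5.74%. The 7 regions with a DR1 match included the Plin4 region open in beige and brown, the Plin2 region at -1979 bp and the Cideb region open in white alone, so they did not share a pattern across conditions. A match says only that these letters are present.

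Of 25 other genes of lipid droplets and triglyceride synthesis, 24 were found in the annotation by symbol and 23 had a promoter peak in all 6 libraries. Hsd17b13, which encodes a droplet enzyme of the liver, had no promoter peak in any library. Both white libraries ranked lowest at the promoters of 3 genes and highest at 1, beside 19.1% and 8.94% of the 13547 protein-coding genes with a promoter peak in all libraries. Both brown libraries ranked highest at 7 genes and lowest at 0, beside 16.1% and 5.34%. Both beige libraries ranked lowest at 6 genes and highest at 1, beside 10.5% and 10.2%.

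The gene of the triglyceride synthase Dgat2 had percentiles of 93.6 and 89.8 in beige, 84.1 and 78.6 in white and 89.7 and 91.4 in brown. Faf2, which takes part in the degradation of droplet proteins, had 99.98 and 99.5 in beige, 98.2 and 93.9 in white and 99.6 and 99.2 in brown. Tmem159, the gene of the seipin partner LDAF1, had 91.5 and 91.1, 87.1 and 84.7, and 92.5 and 93.8 in the same order. Hsd17b11, a droplet dehydrogenase, was highest in white, with 77.5 and 74.4 in beige, 88.5 and 85.4 in white and 82.5 and 81.0 in brown. The peak at the outer start site of Bscl2, the seipin gene, was highest in white, whereas Tmem159 was lowest. That Bscl2 peak cannot be assigned to Bscl2 alone, and the inner Bscl2 start site overlapped between conditions. No opposite pattern of these partners is therefore read from single promoters.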

How the data were processed

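Peak lists of ATAC-seq libraries, 2 from each of the beige, white and brown cultures, were analysed. The authors removed adaptors with Trimmomatic, aligned reads to mm10 with BWA and called peaks in each library with MACS2 at a q value under 0.05. The brown libraries are not described in the paper and are taken to have been processed likewise. Fold enrichment, as deposited, is the ratio of the signal at a summit to its local background. The authors' −log10 q values likewise refer to single summits. The lists hold no read counts, so no interval is given for a peak. By the reporting summary of the study, the white libraries had more mapped reads than the beige libraries, and no depth is stated there for the brown libraries. The part of depth in the differences between lists was not tested.

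Where an interval was listed with several summits, only that with the greatest −log10 q was kept. Intervals were ranked within their list by fold enrichment, and merged over the 6 lists at 1 bp of overlap. Start sites were those of protein-coding transcripts of GENCODE's basic set (release M21) on chromosomes 1 to 19, X and Y. A condition counted as open where both its libraries had a peak and as closed where neither did. In regions with a peak in all libraries, a condition ranked lowest or highest where both its libraries lay below or above all 4 others. The gap is the distance between the nearest libraries.

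All members were named, with every region that followed the conditions by presence, the 3 regions with the largest gap between white and the other libraries in each direction, and other droplet genes that lacked a promoter peak or ranked lowest or highest in white. The members, lists and rules were chosen with earlier results of these data known. Alternatives were stricter q values, lists of equal length, other windows and promoter sizes, other ranks and leaving out each library. The merging and ranking were tested on simulated data. Python 3.11.15 with numpy 2.4.6, pandas 2.3.3 and matplotlib 3.10.9 was used.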

Additional observations from a re-analysis of the deposited data

How the results depend on the processing

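The number of genes with a promoter peak in all libraries, 8, ranged from 7 to 10 under all alternatives. It was 10 with promoters of 3 kb, which take in the peaks at Psme1 for Fitm1 and in Lrg1 for Plin5 in white 2. It was 7 with 500 bp, which leaves out the strongest Fitm2 summits of both white libraries, and 9 without white replicate 2. The 96 regions with a peak in all libraries became 40 in a window of 10 kb and 152 in a window of 100 kb. The 22 regions lowest in white became 9 in the 10 kb window (22.5% of those with a peak in all libraries, all genes 13.5%), and otherwise ranged from 18 to 32 with all libraries in use. Leaving out a library gave 23 to 44, with 44 without white replicate 1 (44.0%, all genes 30.2%) and 35 without white replicate 2 (33.7%, all genes 24.6%). The 8 regions highest in white became 5 in the 10 kb window, and 11 to 28 when a library was left out (13 without beige replicate 1 or brown replicate 2, 15 without white replicate 1 and 28 without white replicate 2). The latter 28 were 26.9% of the regions, beside 25.2% of those near any gene, and the 15 were 15.0% beside 22.8%. The count low in white exceeded the count high in white in each of these settings. Regions near any gene showed the same order in the main setting (12.9% against 11.5%) and in each alternative but that without white replicate 2 (24.6% against 25.2%). The order alone is therefore not read as a trait of these genes.

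The 1 region shared by beige and brown and closed in white became 2 at q under 0.00001, 4 when peaks were cut to 100 bp on each side of the summit, 2 in the 100 kb window and 1 to 6 when a library was left out (2 without beige replicate 2, 6 without white replicate 1 (3.11%, all regions 3.24%), 5 without white replicate 2 (2.50%, all regions 3.17%), 3 without brown replicate 1 and 2 without brown replicate 2). The 2 regions shared by beige and white and closed in brown became 0 in the 10 kb window (all regions 1.17%) and 4 to 7 when a library was left out (2.03% to 3.48%, all regions 1.66% to 3.42%). A smaller or larger window changes how many regions are counted, and fewer libraries make each rule easier to meet. For the counts at the stricter q value and with cut peaks, the cause was not tested. No paired analysis was possible because the results come from no test. No group had the 4 libraries that a check for outlying samples needs. A missing peak says only that none passed the threshold.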
